A study of Mus musculus with 6 samples.

Results

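Regulatory T cells are CD4+ T cells that restrain other immune cells, and 10 genes used to recognise them were read from spleen RNA of mice with and without a working Was gene. The genes were chosen by symbol: Foxp3, Il2ra, Ctla4, Ikzf2, Ikzf4, Tnfrsf18, Tnfrsf4, Lrrc32, Il10 and Gpr83. All 10 were found among the 26452 genes of the deposited table, each as 1 row, and all 10 were among the 22071 genes with a mean normalized count of at least 1, which were tested. The groups were 3 male Was -/- mice (129S6/SvEvTac-Wastm1Sbs/J) and 3 male wild-type 129S6/SvEvTac mice, all aged 10 weeks and given no treatment that the labels name. The targeted allele is carried in all cells of the animal, and the labels name no sorting of the spleen cells. Each library carries the number of its own mouse, so the animal is the unit of each test, with 3 in each group. Knockout libraries are called KO451, KO452 and KO457 and wild-type libraries WT453, WT454 and WT455.

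The transcription factor FOXP3 fixes the identity of regulatory T cells, and its loss in mice and in people leads to fatal autoimmunity. These cells take up IL-2 through the high-affinity receptor chain encoded by Il2ra, remove costimulatory ligands from antigen-presenting cells with CTLA-4, and release IL-10 and activated TGF-beta. The Wiskott-Aldrich syndrome protein, the product of Was, drives actin assembly at the contact between a T cell and its partner, and autoimmunity is common in people who lack it. Since Foxp3 is made by few cells of the spleen, a level in whole spleen RNA mixes the number of such cells with the RNA in each of them, and in bulk samples fewer cells and less RNA per cell cannot be told apart. Several of the 10 genes are also used by other cells, among them activated conventional T cells (Il2ra, Ctla4, Tnfrsf4, Tnfrsf18), platelets and endothelium (Lrrc32), and macrophages, B cells and plasma cells (Il10).

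The libraries held between 30661759 reads assigned to genes in WT455 and 38402758 in WT454. Was, the targeted gene, had normalized counts of 508.2 in KO451, 407 in KO452 and 409.3 in KO457, and of 4142 in WT453, 6561 in WT454 and 6279 in WT455. All knockout spleens were far below all wild-type spleens, with a log2 difference of -3.66 and a standard error of 0.25 (limma, adjusted p = 0.0117). With a library left out the difference ran from -3.87 to -3.53, and the adjusted p was 0.0447 without WT453 but between 0.245 and 0.341 without KO451, KO452, KO457, WT454 or WT455; voom gave an adjusted p of 0.0605. WT453 stood apart from the rest. Its median root mean square difference from the other 5 libraries was 1.66 on the log2 scale, against 1.15 to 1.32 for the others, so the differences of the 10 genes are given with it and without it. Macrophage and erythroid genes were high in the knockout libraries. The summed level of 12 macrophage and monocyte genes was 7353 to 9439 CPM (reads of a gene scaled to library depth) in knockout and 4304 to 6801 CPM in wild-type libraries, and that of 10 erythroid genes was 2106 to 9462 CPM and 418.2 to 1023 CPM. T cell genes overlapped between the groups: 22 lineage genes summed to 1082 to 2223 CPM in knockout libraries and to 1336 CPM in WT453, 3602 CPM in WT454 and 3256 CPM in WT455. The part of these shifts in cell content in the results below was not tested.

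None of the 10 regulatory T cell genes passed the test for a difference between the genotypes, given the spread between animals. At a limma adjusted p under 0.05, 0 of 10 were called, where 0.00906% of all genes tested were called, and voom on recovered reads also called 0. At an unadjusted threshold of 0.05, 1 of 10 passed, Il10, where 11% of all genes passed. The authors' deposited table lists 0 of the 10 at an FDR under 0.05, where it lists 3.58% of its genes. With all libraries 4 members were higher and 6 lower in knockout spleens, with a median log2 difference of -0.36 against -0.03 over all genes tested. Without WT453, 2 were higher and 8 lower, with a median of -0.44 against -0.01. The groups did not overlap for 1 member that was higher in knockout spleens, Il10, where 9.54% of all genes did so, and for 1 that was lower, Ctla4, where 9.94% of all genes did so. These shares of 1 in 10 are near the background.

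**Figure D1:**
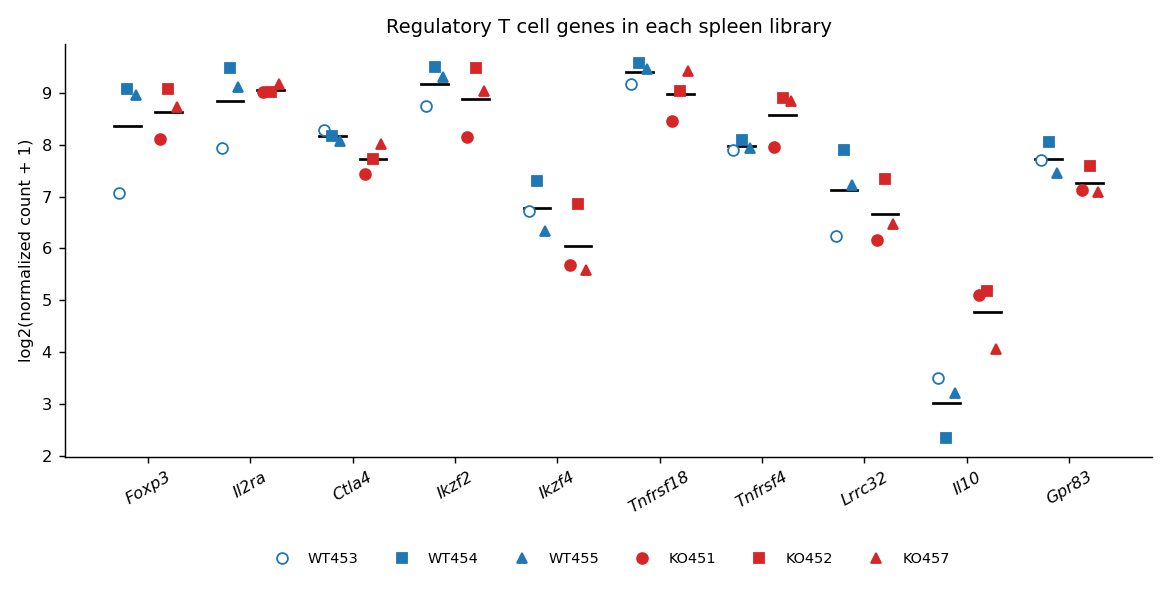
Normalized level of each of the 10 genes in each library on the log2(normalized count + 1) scale, with blue symbols for wild-type and red for knockout libraries, the open circle for WT453 and a black line for the group mean. Only for Ctla4 and Il10 are the groups apart; WT453 lies low for Foxp3 (7.08), Il2ra (7.93) and Lrrc32 (6.23).

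Per length, the surface receptor Tnfrsf18 was the most abundant of the 10. Its mean over the 6 libraries was 11.8 RPKM, that is, the reads per kilobase of exon and per unit of library depth, followed by Tnfrsf4 at 6.98, Ctla4 at 3.23, Il2ra at 2.71 and Foxp3 at 2.63 RPKM. The values of Tnfrsf18 in single libraries ran from 6.26 to 16.1 RPKM and those of Tnfrsf4 from 4.90 to 10.5 RPKM, so these neighbours in the order overlap. The highest library for Ctla4, at 4.01 RPKM, lay below the lowest for Tnfrsf4, whereas Ctla4 overlapped with Il2ra (1.28 to 4.02) and Foxp3 (0.881 to 3.75). Ikzf2 at 1.43, Gpr83 at 1.09, Lrrc32 at 0.844, Ikzf4 at 0.465 and Il10 at 0.391 RPKM made up the lower end, and each overlapped with its neighbour. Of these, Il10 is the member whose values rest on few reads, between 5 and 35 per library.

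Foxp3 (ENSMUSG00000039521, chromosome X, 7573644 to 7595245, plus strand, GRCm38) encodes the forkhead factor that defines the lineage. Its normalized count was 134.0 in WT453, 537.6 in WT454 and 499.7 in WT455, and 277.7 in KO451, 540 in KO452 and 422.8 in KO457. WT453 was the lowest of the 6 libraries, 3.85-fold below the mean of the other wild-type libraries on the log2 scale, and the groups overlapped. The log2 difference was 0.27 with a standard error of 0.57 and a 95% interval from -1.06 to 1.60 (limma, adjusted p = 0.898). Without WT453 the sign turned, to -0.38 with a standard error of 0.32 (adjusted p = 0.542). The interval reaches past 1 on the log2 scale in either direction, so that a change of that size is not excluded by these animals.

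The promoter of Foxp3 is shown because the gene is the anchor of the group and sits near the targeted locus. Sequences here are RefSeq windows of GRCm38.p6 from 250 bases before to 50 bases after a RefSeq start. That start lies inside the GENCODE gene model, whose limits are given here, for Foxp3, Ctla4 and Tnfrsf18. For Tnfrsf4 it lies before the model. Windows are printed for the members on which the comparison turns, and 6 of the 10 members matched an entry. Ikzf2, Ikzf4, Lrrc32 and Il10 did not. Capitals mark matches on either strand to 5 motifs. The NFAT core is spelled GGAAA and is held by 61.3% of all 32851 windows. The STAT motif is spelled TTCNNNGAA and is held by 8.30% of them, and it can overlap the NFAT core. The forkhead motif is spelled TGTTTAC and is held by 3.65%. The Runx motif is spelled TGTGGT and is held by 16.8%, and the TATA box, spelled TATAAA, by 13.6%. Foxp3 has 2 windows in the table, and the upstream one, chrX:7579426-7579725 on the plus strand, holds the TATA box once, beginning at -32 where the RefSeq start of the window is 0, and the NFAT core at -205 and 2. The other window, which begins at 7580233, is not printed and holds the NFAT core at -140 and the STAT letters TTCCAAGAA at -139.
Foxp3: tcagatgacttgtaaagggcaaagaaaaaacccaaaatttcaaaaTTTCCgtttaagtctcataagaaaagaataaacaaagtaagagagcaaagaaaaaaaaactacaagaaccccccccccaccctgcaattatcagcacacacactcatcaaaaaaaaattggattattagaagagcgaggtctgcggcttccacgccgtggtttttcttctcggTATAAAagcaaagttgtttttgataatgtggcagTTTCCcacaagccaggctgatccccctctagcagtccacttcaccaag

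Gene models that share exons with Foxp3 limit what its count means, because the strand setting of the counting is not given in the sources used here. Ccdc22 on the opposite strand shares 590 exon bases with Foxp3, and its normalized count was 1746 in WT453 against 777.5 in WT454 and 589.1 in WT455, and 1173 in KO451, 896 in KO452 and 1004 in KO457. WT453 was thus the highest library for Ccdc22 and the lowest for Foxp3, and whether reads moved between these models was not tested. Flicr, a long non-coding RNA on the same strand that shares 853 exon bases with Foxp3, had 7 to 33 reads per library, and Gm36995, which shares 373 exon bases from the opposite strand, had 42 to 192. Ppp1r3f, which shares 266 exon bases, had a normalized count of 48.2 to 68.0 in knockout and 103.9 to 224.7 in wild-type libraries, with no overlap between the groups (log2 difference -1.47, limma, adjusted p = 0.344, and -1.23 without WT453). Tnfrsf4, Lrrc32, Il10 and Gpr83 overlap no other model, and the counted models that cross the remaining members had at most 24 reads in a library.

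Foxp3 and Was lie 486.2 kb apart on chromosome X, and the genes between them were read from the same test to describe the region. Of 28 genes in the interval 25 were tested, of which 11 were higher and 14 lower in knockout spleens, with a median log2 difference of -0.17, or 0.23 without WT453. Limma called 0. The authors' deposited table puts 1 below its FDR of 0.05, where it lists 3.58% of its genes. At an unadjusted threshold of 0.05, 1 passed, where 11% of all genes tested did. In either case that gene is Gata1, the red cell transcription factor, with a log2 difference of 1.79 and a standard error of 0.43 (limma, adjusted p = 0.344), and of 1.94 without WT453. The erythroid genes named above were high in the same libraries. Was itself, at -3.66, had the lowest value of the region.

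**Figure D2:**
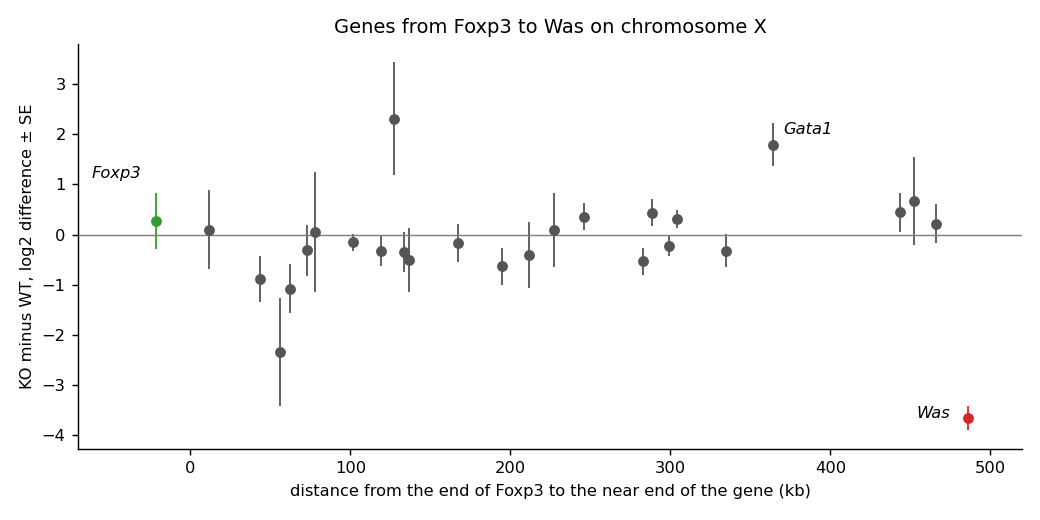
Log2 difference between knockout and wild-type spleens, with its standard error as a bar, for Foxp3 (green), the 25 tested genes between Foxp3 and Was (grey) and Was (red), by distance in kb from the end of Foxp3. Was lies at -3.66 and Foxp3 at 0.27, and the genes between them scatter from -2.34 to 2.31, with Gata1 at 1.79.

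Helios and Eos, the zinc finger proteins encoded by Ikzf2 and Ikzf4, belong to the Ikaros family and act with FOXP3 to stabilise its programme. Ikzf2 (ENSMUSG00000025997, chromosome 1, 69531214 to 69687245) had normalized counts of 427.7 in WT453, 727.7 in WT454 and 630.6 in WT455, and of 282.0 in KO451, 715 in KO452 and 522.5 in KO457. The 6 values overlapped, with KO451 the lowest. The log2 difference was -0.30 with a standard error of 0.39 (limma, adjusted p = 0.806), and it was -0.52 without WT453 and 0.07 without KO451. Ikzf4 (ENSMUSG00000002578, chromosome 10, 128630843 to 128645991) had 104.1 in WT453, 156.6 in WT454 and 80.0 in WT455, and 50.4 in KO451, 115 in KO452 and 46.7 in KO457. KO451 and KO457 lay below all wild-type libraries and KO452 among them. Its log2 difference of -0.75 had a standard error of 0.48 (limma, adjusted p = 0.583), and was -0.78 without WT453 and -1.15 without KO452.

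Il2ra (ENSMUSG00000026770, chromosome 2, 11642807 to 11693193) encodes CD25, the chain that gives the IL-2 receptor its high affinity. Normalized counts were 243.2 in WT453, 718.7 in WT454 and 551.7 in WT455, and 518.9 in KO451, 516 in KO452 and 575.5 in KO457. The 3 knockout spleens were close to each other, with an SD of 0.09 on the log2 scale, and lay between WT453 and WT454. As for Foxp3, the sign of the difference rested on WT453: the log2 difference was 0.22 with a standard error of 0.40 (limma, adjusted p = 0.875), and -0.23 with a standard error of 0.16 without that library (adjusted p = 0.458).

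Ctla4 (ENSMUSG00000026011, chromosome 1, 60887000 to 60915832) encodes the inhibitory receptor that competes with CD28 for CD80 and CD86. Its normalized count was 310.2 in WT453, 288.8 in WT454 and 270.1 in WT455, and 172.6 in KO451, 212 in KO452 and 259.7 in KO457. Every knockout spleen lay below every wild-type spleen, although KO457 was close to WT455. The log2 difference was -0.45 with a standard error of 0.27 and a 95% interval from -1.08 to 0.19 (limma, adjusted p = 0.556), and it was -0.40 without WT453. Unlike Foxp3 and Il2ra, Ctla4 was not low in WT453: the count of Ctla4 per count of Foxp3 was 2.32 there, 0.537 in WT454, 0.541 in WT455 and 0.393 to 0.622 in the knockout libraries.

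Tnfrsf18 and Tnfrsf4 encode GITR and OX40, costimulatory receptors of the TNF receptor superfamily that regulatory T cells carry at rest and other T cells after activation. They are neighbours on the plus strand of chromosome 4, with 9551 bases between the end of Tnfrsf4 (ENSMUSG00000029075, 156013843 to 156016612) and the start of Tnfrsf18 (ENSMUSG00000041954, 156026164 to 156028895). Tnfrsf4 had normalized counts of 238.1 in WT453, 271.7 in WT454 and 244.2 in WT455, and of 247.7 in KO451, 478 in KO452 and 460.2 in KO457. KO452 and KO457 were above all wild-type spleens and KO451 was among them. Its log2 difference was 0.59 with a standard error of 0.32 (limma, adjusted p = 0.532), and 0.56 without WT453. Tnfrsf18 had 579.3 in WT453, 767.7 in WT454 and 703.4 in WT455, and 353.8 in KO451, 527 in KO452 and 688.8 in KO457. Only KO457 reached the wild-type range. Its log2 difference was -0.43 with a standard error of 0.30 (limma, adjusted p = 0.620), and -0.54 without WT453.

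The balance of these neighbouring genes did not overlap between the groups. The count of Tnfrsf4 per count of Tnfrsf18 was 0.411 in WT453, 0.354 in WT454 and 0.347 in WT455, and 0.700 in KO451, 0.907 in KO452 and 0.668 in KO457. All 3 knockout spleens were above all 3 wild-type spleens. The log2 ratio was -1.43 ± 0.13 (SD, n = 3) in wild-type and -0.41 ± 0.24 (SD, n = 3) in knockout libraries, a difference of 1.02, or 1.10 without WT453. With 3 against 3 the exact permutation test (two-sided) cannot go below the p = 0.1 it gave here. The pair was chosen after its values were seen and is 1 of 45 pairs of the 10 genes. The ratio did not overlap between the groups in 11 of the 45 pairs, or 24.4%, where 18.6% of all pairs of genes tested did not. Of these 11 pairs, 6 held Il10 and the other 5 all held Tnfrsf4, set against Ctla4, Ikzf2, Ikzf4, Tnfrsf18 or Gpr83. Pairs that share a gene are not independent.

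The promoter windows of the neighbouring receptor genes and of Ctla4 are shown because the ratio above turns on the former and Ctla4 is the receptor whose groups did not overlap. The Tnfrsf4 window is chr4:156013445-156013744, the Tnfrsf18 window chr4:156026072-156026371 and the Ctla4 window chr1:60908775-60909074, all on the plus strand, with the marks used for Foxp3. The NFAT core is found once in Tnfrsf4, at -220, and in Tnfrsf18 at -195 and -61, and once in Ctla4, at -144. Tnfrsf18 holds TTCACAGAA, a match to the STAT letters, at -99. Ctla4 holds the letters of the TATA box at 40, which is after the RefSeq start and not before it. Forkhead and Runx letters are in none of these windows.
Tnfrsf4: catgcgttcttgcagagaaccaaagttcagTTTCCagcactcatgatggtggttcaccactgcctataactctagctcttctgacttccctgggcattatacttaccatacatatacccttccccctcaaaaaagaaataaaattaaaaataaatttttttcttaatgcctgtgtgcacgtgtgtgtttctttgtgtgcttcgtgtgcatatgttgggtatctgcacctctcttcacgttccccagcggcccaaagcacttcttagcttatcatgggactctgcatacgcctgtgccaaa
Tnfrsf18: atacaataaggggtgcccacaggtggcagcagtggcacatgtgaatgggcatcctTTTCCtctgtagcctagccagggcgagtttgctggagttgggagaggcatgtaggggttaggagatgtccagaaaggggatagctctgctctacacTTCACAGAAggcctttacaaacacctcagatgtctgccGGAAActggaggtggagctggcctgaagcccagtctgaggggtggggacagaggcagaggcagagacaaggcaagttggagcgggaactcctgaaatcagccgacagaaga
Ctla4: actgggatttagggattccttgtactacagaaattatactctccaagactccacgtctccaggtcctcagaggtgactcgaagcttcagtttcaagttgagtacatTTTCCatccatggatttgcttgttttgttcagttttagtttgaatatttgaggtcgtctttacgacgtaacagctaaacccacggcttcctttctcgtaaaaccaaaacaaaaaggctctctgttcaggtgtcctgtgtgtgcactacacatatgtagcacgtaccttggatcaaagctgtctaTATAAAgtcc

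Lrrc32 (ENSMUSG00000090958, chromosome 7, 98489283 to 98502181) encodes GARP, which holds latent TGF-beta at the cell surface. Its normalized count was 74.2 in WT453, 238.2 in WT454 and 149.6 in WT455, and 70.8 in KO451, 162 in KO452 and 88.3 in KO457. The groups overlapped. The log2 difference was -0.46 with a standard error of 0.53 (limma, adjusted p = 0.770), and it was -0.90 without WT453 but -0.07 without WT454. The gene is also active in platelets and endothelium. Of 11 megakaryocyte and platelet genes, 9 were higher in knockout spleens. Their summed level was 69.1 to 123.9 CPM, against 42.0 to 97.3 CPM in wild type. Of 9 endothelial genes tested, 7 were higher, but Pecam1, the most abundant, was lower (log2 difference -0.47, or -0.70 without WT453). The summed endothelial level was 152.7 to 250.1 CPM against 135.4 to 250.8 CPM. Both summed levels overlapped between the groups. The endothelial marker Emcn was below the filter. Their part in the Lrrc32 level was not tested.

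Il10 (ENSMUSG00000016529, chromosome 1, 131019845 to 131024974) encodes the suppressive cytokine IL-10 and showed the largest difference of the 10. It was counted with 10 reads in WT453, 5 in WT454 and 8 in WT455, and with 31 in KO451, 35 in KO452 and 15 in KO457, in all 81 against 23 reads. As normalized counts these were 10.3, 4.08 and 8.31 in the wild-type libraries and 33.2, 35 and 15.6 in the knockout libraries. Every knockout spleen was above every wild-type spleen. The log2 difference was 1.75 with a standard error of 0.60 and a 95% interval from 0.35 to 3.16 (limma, adjusted p = 0.382), and 1.99 without WT453 (adjusted p = 0.238). With a mean of 0.513 CPM, Il10 was left out by the filter at 1 CPM. Of the lists for other cells that make IL-10, all 12 macrophage and monocyte genes were higher in knockout spleens (median 1.07, or 0.63 without WT453), all 10 B cell genes were lower (median -0.74, or -1.13), and of 8 plasma cell genes 5 were higher and 3 lower (median 0.10, or -0.14). Limma called 0 of these genes. At an unadjusted threshold of 0.05, where 11% of all genes passed, 6 of the macrophage list and 0 of the plasma cell list did. Their part in the Il10 level was not tested.

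Gpr83 (ENSMUSG00000031932, chromosome 9, 14860210 to 14870789) encodes a G protein-coupled receptor that is part of the regulatory T cell signature in mice. Normalized counts were 207.2 in WT453, 264.3 in WT454 and 174.5 in WT455, and 139.4 in KO451, 192 in KO452 and 135.1 in KO457. Only KO452 reached the wild-type range. The log2 difference was -0.47 with a standard error of 0.31 (limma, adjusted p = 0.597), and -0.48 without WT453.

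**Figure D3:**
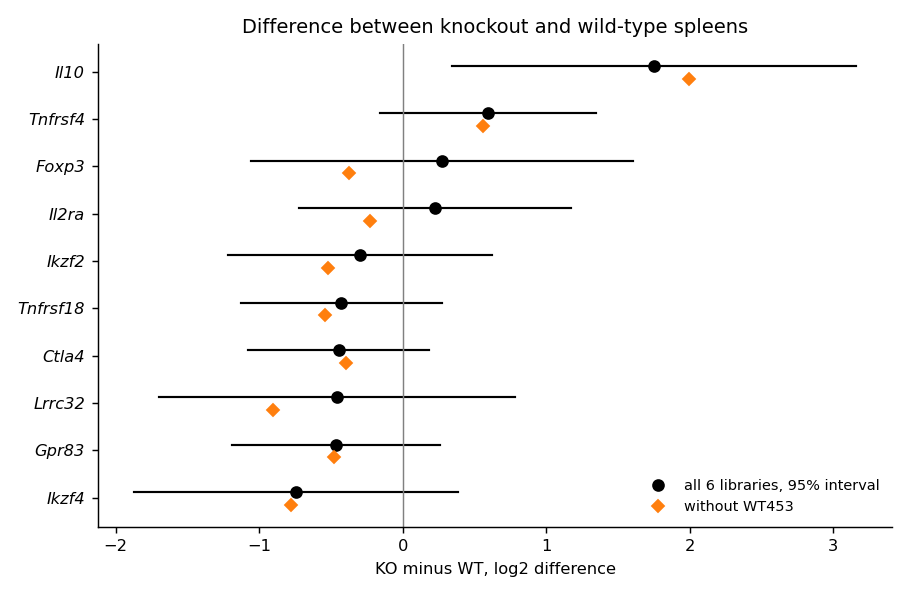
Log2 difference between knockout and wild-type spleens for each gene, with all 6 libraries as black points with 95% intervals and without WT453 as orange diamonds. Intervals cross 0 except for Il10 (0.35 to 3.16), and Foxp3 and Il2ra change sign without WT453.

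The order of the libraries recurred across several members, and the same counts over all genes are not given here. KO451 was the lowest of the 3 knockout libraries for 6 of the 10 genes and KO452 the highest for 7, whereas WT454 was the highest wild-type library for 8 and WT453 the lowest for 6. KO451 also had the highest erythroid level of the 6 libraries, at 9462 CPM, and the lowest T cell level, at 1082 CPM, and KO452 had the highest T cell level of the knockout libraries, at 2223 CPM. The 3 knockout libraries took the same order as the mean of T cell genes for 4 of the 10 members, and the 3 wild-type libraries did so for 6 of the 10.

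To set the members against T cell content, the mean log2 value of 22 T cell lineage genes was subtracted in each library. Those genes, among them Tcf7, a transcription factor of naive T cells, and Lck, the kinase of the T cell receptor, were lower in 21 of 22 cases, with a median log2 difference of -0.54, or -1.04 without WT453. Limma called 0. An unadjusted threshold of 0.05 was passed by 3, namely Trbc1, Lat and Bcl11b, where 11% of all genes tested passed. Foxp3 relative to these genes was -3.54 in WT453, -3.11 in WT454 and -3.09 in WT455, and -2.56 in KO451, -2.50 in KO452 and -2.20 in KO457 on the log2 scale. All 3 knockout spleens were above all 3 wild-type spleens, and WT453 was still the lowest library. The difference was 0.82, or 1.77-fold, with an exact two-sided permutation p = 0.1, the smallest this design allows, and p = 0.333 after Benjamini-Hochberg adjustment over the 10 genes. Without WT453 it was 0.68. With Cd4 alone as the reference it was 0.41, and the exact permutation test gave p = 0.4.

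The choice of reference sets much of that difference. The mean log2 value of the T cell genes differed by -0.55 between the groups, which overlapped (exact permutation test, p = 0.4). Relative to it, the median of all 22071 genes tested was 0.52, and 77.5% of all genes were higher. The difference of Foxp3 exceeded that of 69.1% of all genes. Il2ra, at 0.78, and Il10, at 2.31, were the other members without overlap, so that 3 of 10 members were higher with no overlap, where 11.2% of all genes were. Without WT453 the median of all genes was 1.04, the difference of Foxp3 exceeded that of 29.0% of all genes, and 8 of 10 members had no overlap, where 64.4% of all genes had none. Thus Foxp3 was higher relative to T cell genes in each knockout spleen, but so were 11.2% of all genes tested, or 64.4% without WT453. Ikzf4, at -0.19, was the only member lower relative to T cell genes with all libraries, and it was 0.27 without WT453.

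**Figure D4:**
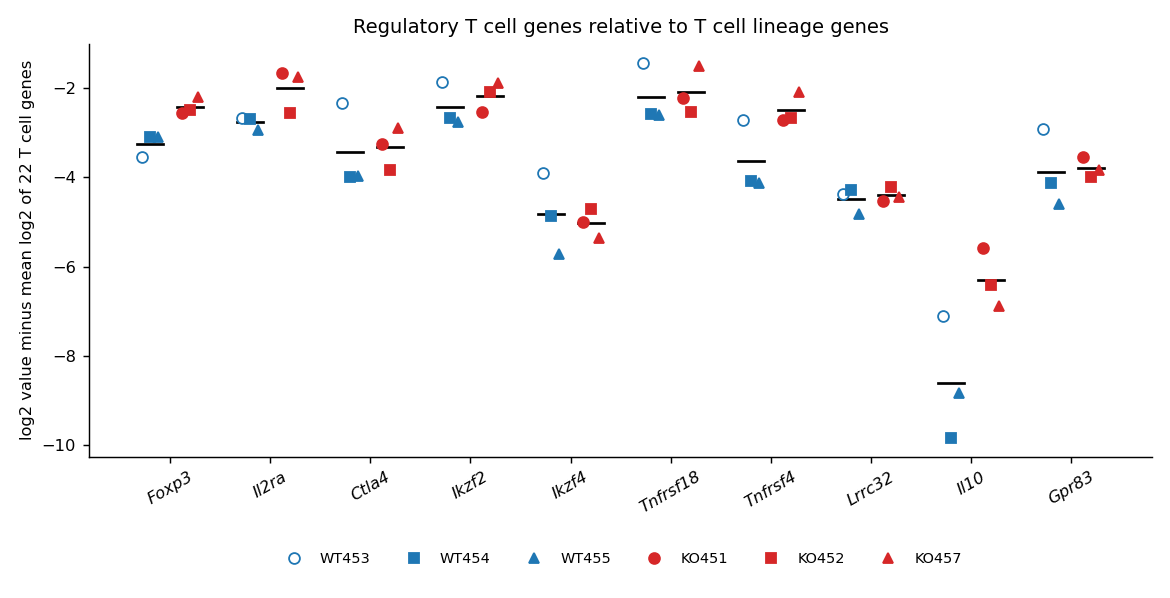
Log2 value of each gene less the mean log2 value of 22 T cell lineage genes in the same library, with blue symbols for wild-type and red for knockout libraries, the open circle for WT453 and a black line for the group mean. Foxp3, Il2ra and Il10 have knockout values above all wild-type values, whereas the other 7 genes overlap.

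The genes whose profile over the 6 libraries was nearest to that of Foxp3 were not regulatory T cell genes. Among 10887 genes with a mean normalized count of at least 100, the smallest root mean square differences of the centred log2 values were those of Mr1 (0.12), Irf9 (0.12), Rrm2b (0.14), Dnase1l3 (0.15) and Smyd5 (0.15). All 5 were low in WT453, at between -1.46 and -1.27 against the mean of their own 6 values. Of the other members, Il2ra ranked 288, Lrrc32 1016, Ikzf2 1529, Tnfrsf4 2970, Tnfrsf18 3469, Gpr83 5053 and Ctla4 5757 by the same measure. Il10 and Ikzf4 were below the minimum level.

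Genes that act with the members were read from lists that cover IL-2 signalling, partners of FOXP3, suppressor effectors, the ligands of the member receptors and homing receptors. Limma called 0 of their genes, and 11% of all genes tested passed the unadjusted threshold that is given for each list. Of 10 IL-2 signalling genes, 2 were higher and 8 lower, with a median log2 difference of -0.27, or -0.35 without WT453, and 0 passed an unadjusted threshold of 0.05. Il2rg, the common gamma chain, had a log2 difference of -0.60 with a standard error of 0.40, and of -1.005 without WT453. Jak1, a kinase bound to the receptor, had 0.09 with a standard error of 0.50, and its sign turned to -0.54 without WT453. Il2 itself was counted at 0 in WT453, WT454 and KO451 and at normalized counts of 7.27 in WT455, 14 in KO452 and 10.4 in KO457.

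Of 21 partners and regulators of FOXP3, 5 were higher and 16 lower, with a median log2 difference of -0.30, or -0.60 without WT453, and 1 passed the unadjusted threshold. That gene was Satb1, a chromatin organiser needed early in the regulatory T cell lineage. Its normalized count was 4406 in WT453, 6209 in WT454 and 5505 in WT455, and 2314 in KO451, 3228 in KO452 and 2387 in KO457. All knockout spleens lay below all wild-type spleens, with a log2 difference of -1.03 and a standard error of 0.23 (limma, adjusted p = 0.344), and the authors' deposited table lists Satb1 as differing at its FDR threshold. Without WT453 its log2 difference was -1.16.

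Suppressor effector genes showed no common direction. Of 17 genes, 11 were higher and 6 lower, with a median log2 difference of 0.09, or -0.03 without WT453, and 0 passed the unadjusted threshold. Tgfb1, the cytokine that GARP presents, had a log2 difference of 0.05 with a standard error of 0.21, and of -0.06 without WT453. Ebi3, a subunit of IL-35 and IL-27, had one of 0.01 with a standard error of 0.62, and 0.78 without WT453, where its normalized count was 2927 against 505.8 to 1263 in the other libraries.

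Of 14 ligands and partners of the member receptors, 8 were higher and 6 lower, with a median log2 difference of 0.11, or 0.09 without WT453, and 1 passed the unadjusted threshold. Tnfsf18 encodes the ligand of GITR. Its normalized count was 9.28 in WT453, 16.3 in WT454 and 38.4 in WT455, and 12.9 in KO451, 371 in KO452 and 293.0 in KO457. KO452 and KO457 were far above the rest, whereas KO451 was within the wild-type range. The log2 difference of 2.59, or 2.14 without WT453, had a standard error of 1.26 (limma, adjusted p = 0.502), while the gene passes the FDR threshold in the authors' deposited table. Traf5, an adaptor that OX40 and GITR engage, had normalized counts of 1538 in WT453, 1698 in WT454 and 1585 in WT455, and of 749.4 in KO451, 1056 in KO452 and 754.2 in KO457. It was lower in every knockout spleen, with a log2 difference of -0.93 and a standard error of 0.22 (limma, adjusted p = 0.344), or -0.96 without WT453, it was the gene past the unadjusted threshold, and it passes the FDR threshold in the authors' deposited table. Tnfsf4, the ligand of OX40, was low in all libraries, at 9 to 19.7 normalized counts.

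Of 12 homing receptors, 3 were higher and 9 lower, with a median log2 difference of -0.36, or -0.81 without WT453, and 2 passed the unadjusted threshold, Ccr8 and Ccr10. Cxcr4, a chemokine receptor of many blood cells, was lower in every knockout spleen, with a log2 difference of -0.46 and a standard error of 0.21 (limma, adjusted p = 0.485), and likewise of -0.46 without WT453. Markers of natural killer cells were lower in 10 of 10 cases (median -0.47, or -1.05 without WT453), with 2 past the unadjusted threshold (Klre1 and Nkg7). Dendritic cells carry the ligands of CTLA-4. Of their markers 5 were higher and 5 lower (median 0.00, or -0.18), with 2 past the unadjusted threshold (Zbtb46 and Clec10a). Over all genes tested, 11% were past it.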

How the data were processed

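RNA of 6 spleens, 3 of each genotype, was sequenced from mRNA libraries, per the labels' protocols. Without giving roles, the submitters' processing notes list GRCm38, DESeq, StringTie 1.3.1c, STAR 2.5.3a and FastQC 0.11.5. How reads were counted, with which annotation and strand setting, is not stated there. The authors deposited log2 values, which by their steps are log2(read count divided by a size factor, plus 1): 100% of values gave whole reads within a relative tolerance of 0.001. Values of 0 and large counts meet this tolerance whatever the step, so only the lower counts test it. Their table also holds a p-value and an FDR, which the authors deposited without stating the test.

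Groups were compared with limma 3.58.1 in R 4.3.3 on the deposited log2 values, with an intensity trend, a 2-group model, no covariate and Benjamini-Hochberg adjustment over 22071 genes with a mean normalized count of at least 1 (4381 left out). Log2 differences on this scale understate changes of low genes. Whether libraries shared a batch is not stated. The headers of the knockout columns end in _1 and those of the wild-type columns do not, and the meaning is not stated either. Gene positions and exon lengths are from GENCODE M21 (GRCm38), which held 26404 of the identifiers; promoters are from RefSeq.

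The members and the 14 gene lists were chosen with earlier results of these data known. Genes eligible to be named were the members, Was, pathway genes past 0.05 in limma (adjusted) or in the authors' FDR, otherwise the 2 most abundant per length, the 2 most abundant of each cell type list, and the 5 profiles nearest to Foxp3. Other genes were named after their values were seen. Alternatives were a pseudocount of 0.1 or 0.01, a filter at 1 CPM or none, quantile normalization, voom with trimmed-mean scaling, totals without immunoglobulin and haemoglobin genes and each library left out. Library quality weights were added after seeing the data. Some genes that the naming rule or a count would name are not reported here.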

Additional observations from a re-analysis of the deposited data

How the results depend on the processing

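No paired analysis was possible because the groups share no animal number. The count of genes called over all genes was 2 in the main test, 16 with library quality weights, 0 with voom on recovered reads, and between 0 and 2 when a library was left out. The count of members called was 0 in each of the 14 alternatives. Of 139 member differences under these alternatives, 134 kept their direction and 5 reversed. With library quality weights Foxp3 was -0.26 and Il2ra -0.0703 on the log2 scale. Leaving out a library gave -0.38 to 0.62 for Foxp3 and -0.23 to 0.55 for Il2ra, both negative without WT453, and -0.60 to 0.0726 for Ikzf2, positive without KO451. The cause was not tested. Foxp3 relative to T cell genes kept its direction under 10 alternatives, at 0.41 to 0.99. Il10 rests on 5 to 35 reads per library, and each group on 3 animals.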

Other observations

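Genes of the homing and suppressor lists that had no overlap between the groups and fall outside the naming rule were picked after their values were seen. Ccr8, a chemokine receptor of activated regulatory T cells, had normalized counts of 12.4 in WT453, 23.7 in WT454 and 18.7 in WT455, and of 53.6 in KO451, 36 in KO452 and 60.3 in KO457. Every knockout spleen was above every wild-type spleen, with a log2 difference of 1.42 and a standard error of 0.47, and 1.18 without WT453. Nrp1, a surface protein of thymus-derived regulatory T cells in mice that endothelium and macrophages also carry, was 395.8 to 553.9 in wild-type and 672.2 to 793 in knockout libraries. Ccr10, a receptor of plasma cells and skin-homing T cells, was 88.6 to 174.5 in wild-type and 54 to 72.9 in knockout libraries. Of the suppressor list, Nt5e, which encodes the adenosine-producing enzyme CD73, was 547.5 to 749.7 in wild-type and 333.4 to 545.4 in knockout libraries. Fgl2, which encodes a secreted fibrinogen-like protein, was 2709 to 2780 in wild-type and 1600 to 2451 in knockout libraries. Over all genes tested, 9.54% were higher and 9.94% lower in knockout spleens without overlap. None of Ccr8, Nrp1, Ccr10, Nt5e and Fgl2 passed limma's adjusted threshold.

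Within the Ikaros family, likewise picked after values were seen, WT453 differed from the other libraries by gene. Ikzf1, which encodes Ikaros, had a normalized count of 416.4 in WT453 and of 3863 to 5270 in the other 5 libraries. Ikzf3, which encodes Aiolos, had 951.3 in WT453 and 3194 to 7156 in the others. Ikzf2 and Ikzf4 lay within the range of the other libraries in WT453. Bach2, a repressor of effector programmes in T cells, had 41.2 in WT453 and 443.9 to 3382 in the others.

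Also picked after their values were seen were Lag3 and Il1rl1, whose groups overlapped. Lag3, an inhibitory receptor of activated T cells, was uneven among knockout spleens, at 567.1 in KO451, 4032 in KO452 and 2014 in KO457, against 583.4 to 1151 in wild-type libraries. Il1rl1, the IL-33 receptor of mast cells and tissue regulatory T cells, showed the other order, at 2001 in KO451, 440 in KO452 and 574.5 in KO457, against 204.8 to 577.2 in wild-type libraries.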
